A study of Mus musculus with 2 samples.

Results

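The genes described here carry signals of energy stores and meals into hypothalamic cells: the leptin receptor Lepr with Stat3, Socs3 and Ptpn1, the insulin receptor Insr with Irs1, Irs2 and Foxo1, the ghrelin receptor Ghsr and the GLP-1 receptor Glp1r. They were chosen as a fixed set of 10 genes by name, and every probe whose gene symbol was a member or an older synonym of it was taken. Of the 10 genes, 9 matched, with 16 probes in 34 spots, out of 41174 probes for 21501 named genes. Irs2 matched no probe by symbol, synonym or accession and was not analysed here.

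Leptin from fat cells binds the long form of its receptor, which recruits the kinase Jak2 and leads to phosphorylation and nuclear entry of STAT3. STAT3 then drives transcription of Socs3, whose product inhibits the same receptor complex, and the phosphatase PTP1B, the product of Ptpn1, removes phosphate from Jak2 and from the insulin receptor. Insulin acts through IRS adaptors, phosphatidylinositol 3-kinase and AKT, which keeps the transcription factor FOXO1 out of the nucleus. In the arcuate nucleus these inputs meet in neurons that make Agrp and Npy, which promote feeding, and in neurons that make Pomc, which restrains it. Ghrelin stimulates the Agrp and Npy neurons, and GLP-1 lowers food intake.

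The study asked how a PPARα agonist changes transcripts of the mouse hypothalamus. Bezafibrate, a fibrate drug that activates PPAR nuclear receptors, was mixed into the feed at 0.5%. The groups were bezafibrate mice at ZT22, control mice at ZT22, bezafibrate mice at ZT10 and control mice at ZT10, where ZT counts hours from lights on. Each group was 1 pool of RNA from 4 mice on 1 single-colour array, so there were no replicates. Per the labels, bezafibrate mice aged 8 weeks had plain feed for 2 weeks, drug for 2 weeks and plain feed again for 5 weeks. Age and feeding schedule are labelled for these mice only, not for the control mice. The labels give neither strain, sex nor genotype, and do not settle at which stage the brains were taken. The tissue was a square block of brain around the hypothalamus. In such bulk RNA, fewer cells of a type and less RNA per cell cannot be told apart.

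All 4 arrays shared 1 slide and 1 scan. The bezafibrate pools lay at positions 3 (ZT22) and 4 (ZT10) and the control pools at positions 1 (ZT22) and 2 (ZT10), so diet and side of the slide cannot be told apart. The 75th percentile of the signal was 893 to 1050 intensity units, and 68.7% to 74.6% of 43379 features were well above background. Of 18 hypothalamic neuron markers, 17 were above background on all 4 arrays, and their summed level was 247.3 to 303.3 times the 75th percentile. Markers of neighbouring tissue were present too, and their sums differed between arrays. Those of striatum (10 of 10 above background on all 4 arrays) summed to 84.2 on the bezafibrate array at ZT22, against 61.1 to 66.3 on the others. Those of the anterior pituitary (6 of 10) summed to 3.13 to 5.78, with its defining factor Pou1f1 above background on none.

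Below, a level is a probe's signal as a percent of its array's 75th percentile, which makes arrays comparable but not probes. The value after ± is the error that the scanner software gives for a log2 ratio. It covers neither mice nor pools. A difference of at least 1.5-fold was counted. Pairs of single arrays allow no p-value. Of the 16 probes, 13 were above background on all 4 arrays, of which 8 were bright (mean signal of at least 100 units) and 5 were dim. The other 3 were both Lepr probes and a Stat3 probe.

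With bezafibrate, 2 of 13 member probes at ZT22 and 1 of 14 at ZT10 differed by at least 1.5-fold, all lower. Among all probes 6.36% did at ZT22 (3.91% lower) and 4.43% at ZT10 (2.68% lower). These 3 differences came from a single dim probe each of Irs1 (both times) and Ghsr (ZT22), and in both genes the other probe did not share them. Among dim probes alone the share was 17.9% at ZT22 and 11.4% at ZT10. None of the 8 bright member probes reached 1.5-fold for diet, beside 1.21% and 0.957% of all bright probes at ZT22 and ZT10. The median log2 ratio over member probes was -0.02 at ZT22 and -0.06 at ZT10, and over all probes it was 0.01 at both times.

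Between times, 1 of 13 member probes in bezafibrate mice differed by at least 1.5-fold, and 3 of 14 in control mice. The shares among all probes were 6.69% and 8.55% in the same order, and among dim probes 18.2% and 21.0%. Higher at ZT22 was a Ghsr probe in both diets. Lower at ZT22 in control mice were the dim Irs1 probe and the other Ghsr probe. No bright member probe reached 1.5-fold between times, beside 1.72% of bright probes in bezafibrate mice and 2.19% in control mice.

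**Figure D1:**
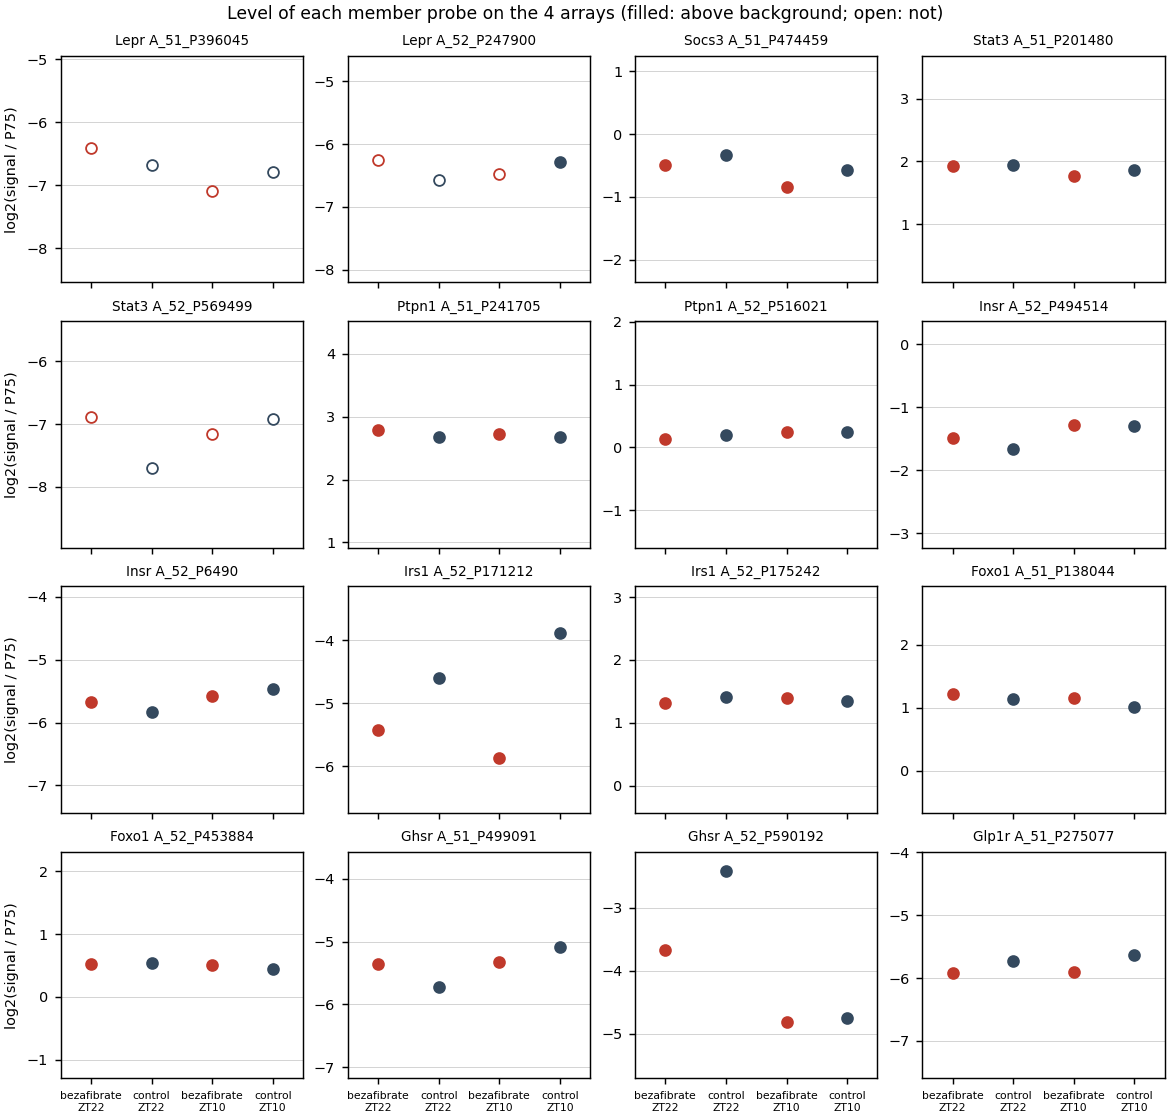
Level of each of the 16 member probes (y axis, log2 of the signal over the array's 75th percentile, P75; each panel spans the same number of log2 units) on the 4 arrays (x axis; red for bezafibrate, dark for control). Filled points are above background and open ones are not; only the Irs1 probe A_52_P171212 and the Ghsr probe A_52_P590192 spread widely among probes above background on all 4 arrays.

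The leptin receptor itself was at the edge of detection. Its probe A_51_P396045 (NM_010704) had 10 spots per array, of which 4 were well above background for bezafibrate and 1 for control at ZT22, against 0 for bezafibrate and 5 for control at ZT10. Its mean level was 1.17% for bezafibrate and 0.973% for control at ZT22, and 0.734% for bezafibrate and 0.904% for control at ZT10. At ZT22 in control mice 3 of the spots were outliers, which left 7. On no array was this probe above background in most of its spots, so no fold is given. The second probe, A_52_P247900 (BC082551), was above background only in control mice at ZT10, at 1.28%. Its levels elsewhere were 1.31% for bezafibrate and 1.05% for control at ZT22, and 1.12% for bezafibrate at ZT10. Being above background on 1 array alone, it entered the counts above through a bound, which did not reach 1.5-fold. Choroid plexus, which is known to carry short leptin receptor forms, had marker sums of 10.5 for bezafibrate and 7.88 for control at ZT22, and of 6.44 for bezafibrate and 6.70 for control at ZT10. Of its 13 markers with a probe, 10 were above background on all 4 arrays and Tmem72 on none. Their part in the Lepr signals was not tested.

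Stat3, the transcription factor that carries the leptin signal to the nucleus, was bright and was measured with 10 spots per array. Probe A_51_P201480 (NM_213659) had a mean level of 380% for bezafibrate and 384% for control at ZT22, and of 342% for bezafibrate and 366% for control at ZT10. Its spots ran from 3000 to 3560 intensity units for bezafibrate and from 3450 to 4100 for control at ZT22, and from 3260 to 3780 for bezafibrate and from 3330 to 3890 for control at ZT10. The bezafibrate array at ZT10 was the lowest after scaling. The log2 ratio of bezafibrate over control was -0.01 at ZT22 and -0.10 at ZT10, and that of ZT22 over ZT10 was 0.15 in bezafibrate mice and 0.07 in control mice, each ± 0.20. The spots of 1 array had an SD of 0.06 to 0.07 in log2, so the ZT10 diet ratio was wider than the spread of spots within an array and narrower than the scanner error. The other Stat3 probe, A_52_P569499 (AK079406), was above background on no array.

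**Figure D2:**
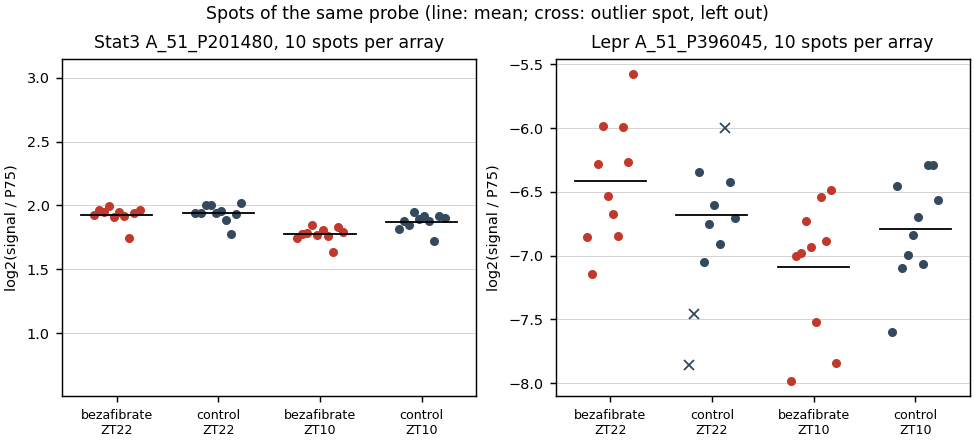
Spots of the 10-spot probes of Stat3 (left) and Lepr (right) on each array (y axis, log2 of the signal over the 75th percentile, with the same span in both panels; x axis, the 4 arrays; line, mean; cross, outlier spot left out). The spots of Stat3 lie close together on every array, while those of Lepr, which is not above background, scatter over more than the distance between arrays.

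Socs3, the feedback inhibitor of leptin receptor signalling, was lower with bezafibrate at both times and higher at ZT22 in both diets, in each case by less than 1.5-fold. Its probe A_51_P474459 (NM_007707) had a level of 71.0% for bezafibrate and 79.7% for control at ZT22, and of 55.7% for bezafibrate and 67.4% for control at ZT10. The highest array was control at ZT22 and the lowest was bezafibrate at ZT10. Bezafibrate over control was -0.17 ± 0.20 at ZT22 and -0.28 ± 0.20 at ZT10. ZT22 over ZT10 was 0.35 ± 0.20 in bezafibrate mice and 0.24 ± 0.20 in control mice. In the order of levels, control at ZT22 and bezafibrate at ZT22 differed by less than the scanner error, as did bezafibrate at ZT22 and control at ZT10, while bezafibrate at ZT10 lay further below.

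Markers of meningeal fibroblasts ran the same way as Socs3 between times. All 11 of 11 were higher at ZT22 in both diets, with a median log2 ratio of 0.68 in bezafibrate mice and 0.29 in control mice. Their summed level was 18.0 for bezafibrate and 18.4 for control at ZT22, and 12.9 for bezafibrate and 14.6 for control at ZT10. All 11 were also lower with bezafibrate at ZT10 (median -0.19), while at ZT22 7 were lower and 4 higher (median -0.04). Their part in the Socs3 values was not tested.

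The 250 bases before the start of Socs3 (RefSeq, GRCm38.p6, chr11:117969367-117969616, minus strand) are shown because STAT3 acts on this gene, with the match to a STAT site in capitals.
Socs3: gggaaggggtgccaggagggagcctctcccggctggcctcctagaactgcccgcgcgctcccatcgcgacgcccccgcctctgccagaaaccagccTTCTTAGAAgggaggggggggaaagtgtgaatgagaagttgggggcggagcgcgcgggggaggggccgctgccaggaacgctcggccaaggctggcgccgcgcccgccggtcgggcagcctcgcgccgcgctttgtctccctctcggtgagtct
The motif searched on both strands was TTCNNNGAA, and its match begins at position -154 from the start. Of 32851 promoters of the same length, 7.02% held it.

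Ptpn1, the phosphatase that acts on both the leptin and insulin receptors, differed between arrays by less than the scanner error with both of its probes. Probe A_51_P241705 (NM_011201) had levels of 692% for bezafibrate and 642% for control at ZT22, and of 658% for bezafibrate and 640% for control at ZT10. Probe A_52_P516021 (BF165830) had 109% for bezafibrate and 115% for control at ZT22, and 119% for both diets at ZT10. All 8 log2 ratios of these probes lay between -0.12 and 0.11, inside the scanner error of 0.20. Foxo1, the transcription factor held back by insulin, behaved likewise. Its probe A_51_P138044 (NM_019739) had 232% for bezafibrate and 221% for control at ZT22, and 222% for bezafibrate and 202% for control at ZT10. Its probe A_52_P453884 had 143% for bezafibrate and 146% for control at ZT22, and 143% for bezafibrate and 137% for control at ZT10. The 8 Foxo1 ratios ran from -0.02 to 0.14, and the first probe was higher with bezafibrate at both times, by 0.07 and 0.14.

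The insulin receptor Insr was lower at ZT22 than at ZT10 by both probes in both diets. Probe A_52_P494514 (AK085344, listed under a clone name that is now Insr) had 35.7% for bezafibrate and 31.7% for control at ZT22, and 41.3% for bezafibrate and 40.5% for control at ZT10. Its time ratio was -0.21 ± 0.20 in bezafibrate mice and -0.35 ± 0.20 in control mice. The arrays of ZT22 lay below both arrays of ZT10, with control at ZT22 the lowest. The dim probe A_52_P6490 (NM_010568) had 1.96% for bezafibrate and 1.76% for control at ZT22, and 2.09% for bezafibrate and 2.27% for control at ZT10, in the same order of times. Its time ratios were -0.09 ± 0.41 and -0.36 ± 0.37, within its scanner error in both diets. For diet, the 4 Insr ratios lay between -0.12 and 0.17, all within the error.

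Irs1, the adaptor that couples the insulin receptor to phosphatidylinositol 3-kinase, differed between its 2 probes. The dim probe A_52_P171212 (NM_010570) had a level of 2.32% for bezafibrate and 4.15% for control at ZT22, and of 1.71% for bezafibrate and 6.78% for control at ZT10. Both bezafibrate arrays lay below both control arrays, with a log2 ratio of -0.84 ± 0.27 at ZT22 and -1.98 ± 0.32 at ZT10. A difference at least as large was seen in 10.5% of dim probes at ZT22 and 1.2% at ZT10. Control at ZT10 was at least 1.5-fold above each of the other 3 arrays for this probe, as it was for 119 of 27189 probes (0.438%).

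The bright Irs1 probe A_52_P175242 (AK136875) showed none of this. Its level was 250% for bezafibrate and 266% for control at ZT22, and 262% for bezafibrate and 254% for control at ZT10. Bezafibrate over control was -0.09 ± 0.20 at ZT22 and 0.04 ± 0.20 at ZT10. The 2 probes' ratios differed by 0.75 ± 0.33 at ZT22 and by 2.03 ± 0.38 at ZT10, more than their combined scanner error.

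At both ZT22 and ZT10 the raw scan of the dim Irs1 probe gave a smaller contrast than its processed signal. At ZT22 the median pixel value was 82.5 over a local background of 47 for bezafibrate, against 92 over 52 for control. At ZT10 it was 80.5 over 46 for bezafibrate, against 135 over 49 for control. The 72 spots within 5 rows and columns had median log2 ratios of -0.03 at ZT22 and -0.01 at ZT10, so the surrounding spots did not share the difference. With another background correction (normexp, which models background and adds an offset), the ratio was -0.06 at ZT22 and -0.70 at ZT10.

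The 250 bases before the start of Irs1 (RefSeq, GRCm38.p6, chr1:82291440-82291689, minus strand) are shown because this gene had the largest diet ratio among members on the processed signal, with an E-box in capitals. With normexp the Ghsr probe described below was further apart, at -0.93 for diet at ZT22.
Irs1: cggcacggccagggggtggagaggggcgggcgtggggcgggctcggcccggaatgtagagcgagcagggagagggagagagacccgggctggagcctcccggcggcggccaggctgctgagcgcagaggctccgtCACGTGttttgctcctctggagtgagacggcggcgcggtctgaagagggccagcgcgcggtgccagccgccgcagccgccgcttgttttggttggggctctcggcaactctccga
The E-box CACGTG, bound by clock and other basic helix-loop-helix factors, was searched on both strands and found at position -115. It occurred in 6.02% of all promoters of this length. FOXO (TGTTTAC, 3.17% of promoters) and PPAR direct-repeat (AGGTCA, any 1 base, AGGTCA, 0.0335%) motifs matched none of the 10 promoters found for 9 member genes.

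Ghsr, the ghrelin receptor, likewise depended on the probe, although both are listed for the same transcript, NM_177330. Probe A_52_P590192 had a level of 7.86% for bezafibrate and 18.7% for control at ZT22, and of 3.56% for bezafibrate and 3.71% for control at ZT10. The control array at ZT22 stood highest, bezafibrate at ZT22 came next, and both ZT10 arrays were alike. ZT22 over ZT10 was 1.14 ± 0.24 in bezafibrate mice and 2.33 ± 0.22 in control mice. With normexp the time ratio was 0.55 in bezafibrate mice, under 1.5-fold, and 1.44 in control mice. Differences at least as large between times were seen in 3.9% of dim probes in bezafibrate mice and 1.56% in control mice. Bezafibrate over control was -1.25 ± 0.21 at ZT22 and -0.06 ± 0.25 at ZT10.

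Probe A_51_P499091 was not higher at ZT22. It had 2.43% for bezafibrate and 1.90% for control at ZT22, and 2.50% for bezafibrate and 2.93% for control at ZT10, so that control at ZT22 was here the lowest array. Its ratio of ZT22 over ZT10 was -0.04 ± 0.35 in bezafibrate mice and -0.62 ± 0.35 in control mice, the last of which was -0.09 with normexp. Its ratio of bezafibrate over control was 0.35 ± 0.38 at ZT22 and -0.23 ± 0.32 at ZT10. The probes' time ratios differed by 1.18 ± 0.43 in bezafibrate mice and 2.96 ± 0.41 in control mice, and their diet ratios by 1.61 ± 0.44 at ZT22 and 0.17 ± 0.41 at ZT10.

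For the first Ghsr probe the raw scan showed the same order of arrays. The median pixel value was 138 over a background of 48 for bezafibrate and 284.5 over 48.5 for control at ZT22, and 98 over 44.5 for bezafibrate and 100 over 46 for control at ZT10. The 81 surrounding spots had a median log2 ratio of -0.02 for diet at ZT22 and 0.01 for time in control mice. Control at ZT22 was at least 1.5-fold above each of the other 3 arrays for 200 of 27189 probes (0.736%), the highest number among the 4 arrays. This Ghsr probe was among them.

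The genes whose 4 levels ran closest to this Ghsr probe, by Euclidean distance of centred log2 levels over the 4 arrays among 15907 genes, were A430093F15Rik (0.595), 1700001J04Rik (0.599), Spon2 (0.676), Cyp2c65 (0.695) and D930031A20Rik (0.72). All 5 were dim. They were highest in control mice at ZT22, which follows from choosing them by their likeness to this probe. Spon2, an extracellular matrix protein, had a level of 5.63% for bezafibrate and 8.75% for control at ZT22, and of 3.12% for bezafibrate and 2.82% for control at ZT10.

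The 250 bases before the start of Ghsr (RefSeq, GRCm38.p6, chr3:27371101-27371350, plus strand) are shown because this gene had the largest time ratio among members, with normexp too. No E-box, STAT, FOXO or direct-repeat motif was found in them, so no letter is in capitals.
Ghsr: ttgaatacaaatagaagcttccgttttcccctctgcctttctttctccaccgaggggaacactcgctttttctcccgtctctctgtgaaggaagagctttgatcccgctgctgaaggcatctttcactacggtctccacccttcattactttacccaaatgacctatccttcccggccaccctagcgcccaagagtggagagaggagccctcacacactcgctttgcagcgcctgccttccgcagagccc

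Glp1r, the receptor for the gut and brainstem peptide GLP-1, had 1 dim probe, A_51_P275077 (NM_021332). Its level was 1.66% for bezafibrate and 1.89% for control at ZT22, and 1.67% for bezafibrate and 2.02% for control at ZT10. On the processed signal both bezafibrate arrays lay below both control arrays. The ratios were -0.19 ± 0.37 at ZT22 and -0.28 ± 0.36 at ZT10, within the scanner error, and the times did not separate (-0.01 ± 0.40 and -0.09 ± 0.32). With normexp the diet ratios were -0.13 at ZT22 and 0.00 at ZT10. The raw median at ZT22 was 76 over a background of 52 for bezafibrate, against 77 over 47.5 for control. At ZT10 it was 77 over 46 for bezafibrate, against 78 over 49.5 for control. Thalamic markers were lower with bezafibrate as well, 10 of 12 at ZT22 (median -0.23) and 11 of 12 at ZT10 (median -0.28). All 12 were above background on every array, and they summed to 28.9 for bezafibrate and 31.4 for control at ZT22, and to 28.9 for bezafibrate and 33.6 for control at ZT10. Their part in the Glp1r values was not tested.

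**Figure D3:**
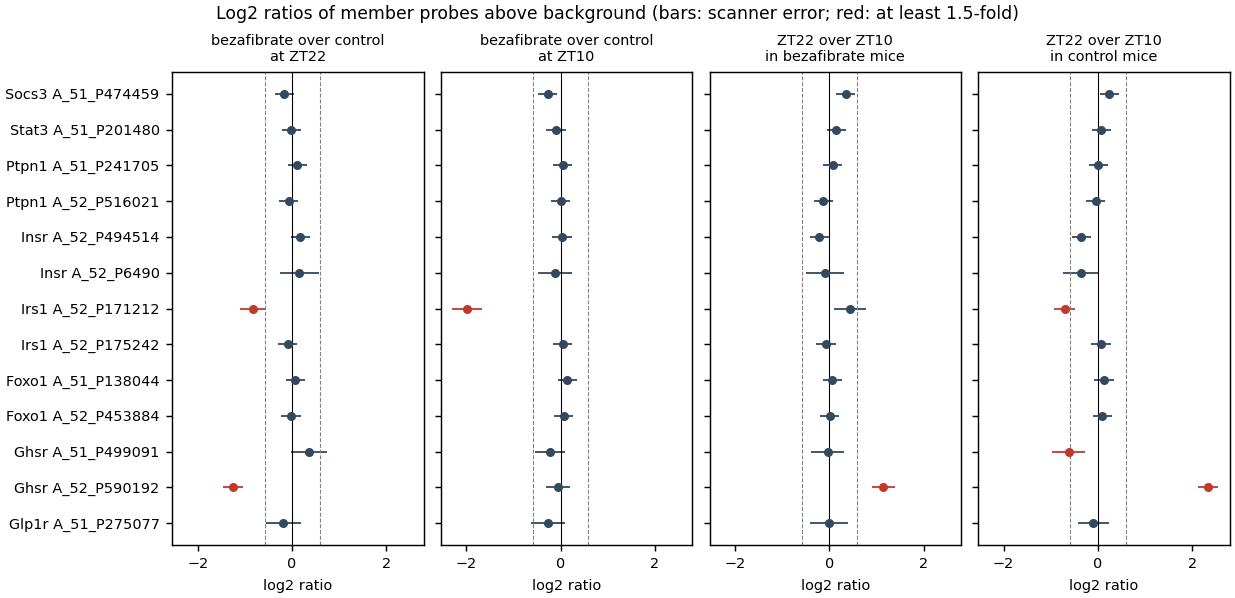
Log2 ratios of the 13 member probes above background on both arrays (x axis) in the 4 comparisons, with scanner error bars and dashed lines at 1.5-fold. Points in red reached 1.5-fold: the dim Irs1 probe and a Ghsr probe for diet, and these together with the other Ghsr probe for time.

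An additive model of diet and time over the 4 arrays, fitted with limma to 31029 probes, was the only test the design allowed, with 1 residual degree of freedom. It called none of the 14 member probes it held at an adjusted p of 0.05, and no probe at all (0.0% for either effect). At an unadjusted p under 0.05 it listed 0 member probes for diet, beside 5.18% of all probes, and 3 for time, beside 11.1%. These 3 were Ghsr A_52_P590192 (log2 difference of ZT22 minus ZT10 1.74 ± 0.40, SE), Socs3 (0.30 ± 0.07) and Insr A_52_P494514 (-0.28 ± 0.07). Each had a limma adjusted p of 0.446. For diet, the dim Irs1 probe was at -1.41 ± 0.38, Socs3 at -0.22 ± 0.07 and Glp1r at -0.23 ± 0.06, each with a limma adjusted p of 0.887. Over member probes the adjusted p ran from 0.887 to 0.988 for diet and from 0.446 to 0.993 for time.

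The hormones that act on these receptors are made mainly outside the brain, and most were barely detected in the block. Lep was above background on no array, and Ins1 only in control mice at ZT10. Ins2 was above background throughout, with 73.8% for bezafibrate and 71.3% for control at ZT22, and 69.3% for bezafibrate and 60.8% for control at ZT10. Its ratios stayed within 0.05 to 0.23 by its brightest probe, and its other probe gave -0.06 to 0.19. Ghrl, which encodes ghrelin, had 3.47% for bezafibrate and 2.57% for control at ZT22, and 1.69% (not above background) for bezafibrate and 1.5% for control at ZT10. Ghrl was higher at ZT22, by 2.06-fold in bezafibrate mice (± 0.38 in log2) and by a log2 ratio of 0.78 ± 0.34 in control mice. The first fold uses a ZT10 signal that was not above background.

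Gcg, the precursor gene of GLP-1, was above background in control mice alone, at 4.31% at ZT22 and 1.44% at ZT10. With bezafibrate its signal at ZT22, not above background, was 3.13-fold lower (± 0.38 in log2). In control mice ZT22 over ZT10 was 1.58 ± 0.32. The Gcg and Ghrl probes were dim, and 17.9% of dim probes reached 1.5-fold for diet at ZT22. Between times 18.2% of dim probes did in bezafibrate mice and 21.0% in control mice. Each gene has 2 probes, and the other was above background on both arrays in no comparison. Gip, which encodes another incretin, was above background only with bezafibrate at ZT10, at 2.09%. This was 1.97-fold above the control signal (± 0.47 in log2). Igf1 had ratios from -0.04 to 0.01 by its brightest probe, and its other measured values ran from -0.17 to 0.26. Igf2, a growth factor that is also one of the meningeal markers above, was higher at ZT22 by 0.68 ± 0.20 in bezafibrate mice and 0.29 ± 0.20 in control mice.

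Of 27 other genes listed beside the leptin receptor, all were measured. The list is broad and also holds genes that are not established partners of the receptor, such as Il6st, Megf10 and Magi2. For diet 1 of the 27 reached 1.5-fold by its brightest probe at ZT22 and 0 at ZT10. The shares of genes in all were 5.54% and 3.86%. The median log2 ratio of the 27 was 0.03 at ZT22 and -0.01 at ZT10, beside 0.01 for all genes at both times. The one was Socs7, a dim relative of Socs3, with 1.56% for bezafibrate and 2.66% for control at ZT22 (-0.77 ± 0.33). Jak2, the receptor's kinase, had ratios of -0.01 at ZT22 and 0.05 at ZT10 by its brightest probe, and its other probe gave 0.50 and 0.20. The adaptor Sh2b1 had 0.17 and -0.09, the phosphatase gene Ptpn11 0.07 and 0.01, and Ptpn2 -0.08 and 0.00. Among further suppressors of cytokine signalling, Socs1 was higher at ZT22, like Socs3, by 0.22 ± 0.20 in bezafibrate mice and 0.35 ± 0.20 in control mice. Socs2 had time ratios of -0.02 and -0.18 and Cish of 0.10 and 0.09 in the same diets, within the scanner error. Socs2 (0.13 and -0.03) and Cish (0.03 and 0.02) stayed within the scanner error for diet at ZT22 and ZT10. Between times none of the 27 reached 1.5-fold by its brightest probe. The share of all genes was 5.49% in bezafibrate mice and 6.52% in control mice.

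Among 16 measured STAT3 target genes, 0 reached 1.5-fold for diet at either time, beside 5.54% of all genes at ZT22 and 3.86% at ZT10. Between times 1 did in each diet, a count near the 5.49% of all genes in bezafibrate mice and 6.52% in control mice. Bcl3, a regulator of NF-κB, was higher at ZT22 in bezafibrate mice (1.02 ± 0.21), and the kinase gene Pim1 was lower at ZT22 in control mice (-0.63 ± 0.34). The target list's median was 0.02 at ZT22 and -0.04 at ZT10 for diet.

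Of 41 measured genes of insulin receptor signalling, 0 reached 1.5-fold for diet at ZT22 and 2 at ZT10. The shares of all genes were 5.54% and 3.86%, so the ZT10 count is near that of all genes. Slc2a4, the insulin-responsive glucose transporter GLUT4, had 81.1% for bezafibrate and 53.9% for control at ZT10 (0.59 ± 0.20), against 69.5% for bezafibrate and 65.0% for control at ZT22. The lowest array was control at ZT10. Insrr, an orphan relative of the insulin receptor, was lower with bezafibrate at ZT10 (-0.59 ± 0.25). Inppl1, a lipid phosphatase that opposes insulin signalling, had 347% for bezafibrate and 244% for control at ZT10, a ratio of 0.51 ± 0.20. It was the only gene of the list past 1.5-fold between times (0.63 ± 0.20 in control mice). The share of all genes between times was 6.52% in control mice and 5.49% in bezafibrate mice. By their brightest probes, Igf1r (0.17 at ZT22 and 0.09 at ZT10) and the adaptor Irs4 (-0.03 and -0.09) stayed within the scanner error for diet. The other Igf1r probes gave 0.02, 0.07 and -0.14 at ZT22 and 0.01, 0.02 and 0.37 at ZT10. The list's median was -0.02 at ZT22 and 0.01 at ZT10.

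Among FOXO factors, their target genes and the cofactors Sirt1, Ep300 and Kat2b, 1 of 18 measured genes reached 1.5-fold for diet at ZT22. At ZT10 2 of 21 did. The shares of all genes were 5.54% and 3.86%, so the ZT22 count is at the share of all genes. Depp1, a FOXO target that is induced by fasting, was higher with bezafibrate at both times. It had 27.4% for bezafibrate and 15% for control at ZT22 (0.87 ± 0.21), and 16.4% for bezafibrate and 10.5% for control at ZT10 (0.64 ± 0.21). It was also higher at ZT22 in bezafibrate mice (0.74 ± 0.21) and in control mice (0.52 ± 0.21). G6pc, the glucose-6-phosphatase gene, was dim and lower with bezafibrate at ZT10 (-0.64 ± 0.29). Foxo3 was above background only in control mice at ZT10, as was Foxo4. The list's median for diet was 0.18 at ZT22 and 0.06 at ZT10, beside 0.01 for all genes at both times.

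Glucocorticoid-responsive genes ran the same way as the FOXO list at ZT22. Of 13 measured, 12 were higher with bezafibrate at ZT22 (median 0.27) and 7 at ZT10 (median 0.09). The median of all genes was 0.01 at both times. At ZT22 2 reached 1.5-fold and at ZT10 0, beside 5.54% and 3.86% of all genes. The 2 were the kinase gene Sgk1 (0.67 ± 0.20) and the metallothionein gene Mt2 (0.71 ± 0.20). The part of glucocorticoid-responsive genes in the values of Depp1 was not tested.

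On the ghrelin axis, 1 of 14 measured genes reached 1.5-fold for diet at each time, beside 5.54% of all genes at ZT22 and 3.86% at ZT10. It was Gh, the pituitary growth hormone gene, with 1.04% (not above background) for bezafibrate and 6.33% for control at ZT22, and 1.51% for bezafibrate and 19.9% for control at ZT10. The fold was at least 5.90 lower at ZT22, and the log2 ratio was -3.72 ± 0.33 at ZT10. Gh is also one of the anterior pituitary markers. Of these, 8 of 8 above background on both arrays were lower with bezafibrate at ZT10 (median -0.63). At ZT22 6 of 8 measured were above background on both arrays, with 4 higher and 2 lower (median 0.21). The 6 leave out 2 markers, Gh among them, that were below background with bezafibrate and at least 1.5-fold lower. The summed level of all 10 markers was 5.78 for bezafibrate and 4.27 for control at ZT22, against the direction of Gh. Among the receptors and effectors related to GLP-1, 1 of 22 reached 1.5-fold at each time, both lower, a count near those shares of all genes. They were Vipr2, the VIP receptor, at ZT22 and Ramp3, a receptor partner that is also a thalamic marker, at ZT10 (-0.81 ± 0.20). For Vipr2 the fold was 1.6 (± 0.44 in log2), with the bezafibrate signal not above background. The GIP receptor gene Gipr had -0.02 at ZT22 and 0.10 at ZT10.

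Of the 4 neuropeptide genes downstream of these receptors, 2 at ZT22 and 3 at ZT10 differed between diets by at least 1.5-fold, beside 5.54% and 3.86% of all genes. Agrp had 151% for bezafibrate and 47.2% for control at ZT22, and 125% for bezafibrate and 63.3% for control at ZT10, and Npy was higher with bezafibrate by 1.26 ± 0.20 at ZT22 and 0.72 ± 0.20 at ZT10. Pomc was lower, by log2 ratios of -0.51 ± 0.20 and -1.15 ± 0.20 at the same times. Cartpt had -0.19 at ZT22 and -0.36 at ZT10. Pomc is also transcribed in the pituitary. Of the pituitary markers above background on both arrays, 8 of 8 were lower with bezafibrate at ZT10 (median -0.63). At ZT22 2 of 6 were lower (median 0.21), and a further 2, below background with bezafibrate, were at least 1.5-fold lower. The part of these markers in the Pomc values was not tested.

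**Figure D4:**
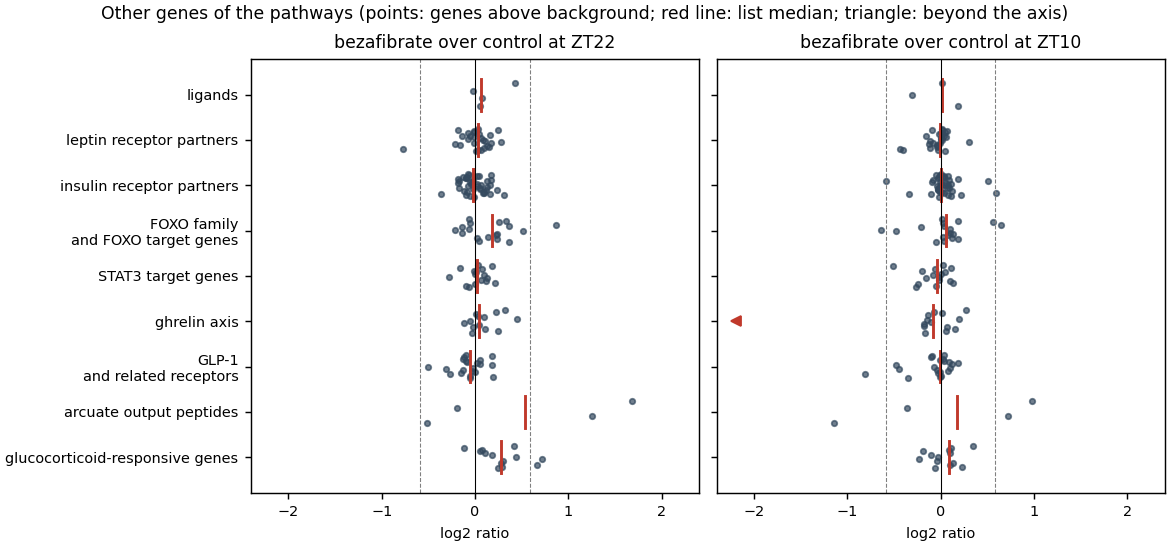
Log2 ratios of bezafibrate over control (x axis) for the other genes of these pathways, grouped by list (y axis), at ZT22 (left) and ZT10 (right). Points are genes above background on both arrays, red lines are list medians, dashed lines mark 1.5-fold, and the triangle is Gh at -3.72; Agrp and Npy lie furthest to the right.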

How the data were processed

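RNA of 4 pools was measured on whole-genome mouse oligonucleotide arrays, 400 ng of total RNA labelled per pool. Per the file headers, the authors extracted spots with Feature Extraction 9.5.1.1, and the deposited processed signal is a background-subtracted intensity on each array's own scale. Other 0 or 1 marks per spot (well above background, outlier) were deposited with it. The authors' deposited value table is, per the labels, a ratio of bezafibrate over control for present spots. It is linear, with column medians of 0.958 at ZT22 and 0.947 at ZT10. Its log2 correlated at 0.995 (ZT22) and 0.996 (ZT10) with the array files across probes, offset by -0.07 and -0.09. It served as an alternative.

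From these, log2 signal minus the array's 75th percentile over features that were not controls was computed. Between 73 and 142 outlier spots an array were dropped before averaging the spots of each probe. A probe counted as above background when over a share of 0.5 of its spots did. A dim signal in a bound was set to the higher of itself and the lowest spot above background on that array (8.1 to 13.6 units). Where the signal itself was the higher, the fold is a plain ratio and not a minimum. Symbols came from the RefSeq table of GRCm38.p6, used for names. Other genes are given by their brightest probe. Named were every member probe, all ligands, the genes of each list at least 1.5-fold apart in a comparison (at most 6 per list), a fixed set of partners, and the 5 genes most like the member probe with the widest range. Mrap2, of that fixed set, matched no probe and was not analysed here. The members and lists were chosen with earlier results of these data known. The additive fit used limma 3.58.1 (lmFit, eBayes, Benjamini-Hochberg over all probes) in R 4.3.3; other steps used Python 3.11.15. Counting and fit were tested on simulated data. The simulated data for the fit gave every probe the same noise, so they do not cover the wider errors of dim probes. The arrays' number limits the precision. Alternatives were other scalings, normexp with quantile normalization, a signal minimum of 100 units, a 2-fold threshold, 1 value per gene and the deposited ratio.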

Additional observations from a re-analysis of the deposited data

Results flagged for a closer look

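The dim Irs1 probe A_52_P171212 ran in opposite directions between times in the 2 diets. ZT22 over ZT10 was 0.44 ± 0.34 in bezafibrate mice and -0.71 ± 0.23 in control mice, a difference of 1.14 ± 0.41 on the log2 scale. With normexp the ratios were 0.09 in bezafibrate mice and -0.54 in control mice. With 1 array per group the difference was not tested. The bright Irs1 probe gave -0.07 in bezafibrate mice and 0.07 in control mice.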

How the results depend on the processing

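No paired analysis was possible because each group is 1 pool on 1 array. Leaving out an array was not possible either, since the additive model then has no residual degrees of freedom. The count of member probes at least 1.5-fold apart was 2 for diet at ZT22, 1 for diet at ZT10, 1 between times in bezafibrate mice and 3 in control mice. Restricted to probes of at least 100 units, all 4 counts were 0, since every counted probe is dim. With normexp they were 1 for diet at ZT22, 0 between times in bezafibrate mice and 1 in control mice. At 2-fold they were 1 for diet at ZT22 and 1 between times in control mice. With 1 value per gene they were 0 for diet at ZT22, 0 between times in bezafibrate mice and 1 in control mice. The counts under the other scalings and the deposited ratio were within 1.5 times of these. Of 266 recomputed single ratios, 260 moved by less than the scanner error, and the 6 that moved more all came from normexp. They were those of the dim Irs1 probe (-0.06 at ZT22 and -0.70 at ZT10 for diet), of Ghsr A_52_P590192 (-0.93 for diet at ZT22, 0.55 and 1.44 between times in bezafibrate and control mice) and of Ghsr A_51_P499091 (-0.09 between times in control mice). The additive fit called 0 member probes under each alternative run. Probes near background, among them Lepr, Glp1r and dim probes of Insr, Ghsr, Irs1 and Stat3, carry wider scanner errors than the bright ones.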
